A study of Mus musculus with 8 samples.

Results

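The 36 genes described here encode plasma proteins made by the liver and enzymes of amino acid metabolism that mark hepatocytes. They were chosen by symbol, all 36 were found in the gene table of the mouse genome, and they are set beside the whole of its 21631 protein-coding genes on the autosomes and X. Accessible chromatin had been mapped by ATAC-seq (a transposase, Tn5, inserts adapters into open DNA) in the mouse hepatoma line Hepa-1c1c7. The groups were cells given potassium chromate, a source of hexavalent chromium, at 0.1, 0.5 or 1 µM for 72 h, and untreated cells of the same line, with 2 libraries per group and 8 in all. The series is named for accessibility and CTCF sites at promoters after this exposure.

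The data consist of 3 lists of regions, of which each belongs to one treated dose and carries the untreated cells in its name. The list at 0.1 µM held 14401 regions, that at 0.5 µM 11130 and that at 1 µM 15894. Both libraries of a dose point to the same list, so the values carry no error between replicates, doses could not be compared against such an error, and no test was made. The sources used here do not say how the control entered the lists, nor whether a listed region was more open in treated than in untreated cells. A gene without a region is therefore not shown to be closed, and a gene with one is not shown to have opened. The library depth is unknown. The labels of the 1 µM libraries carry the prefix N503 and those of all others N502, which cannot be told apart from the dose. A single hepatoma line is a limited model of liver tissue, and in bulk material a site open in few cells and a site weakly open in many cannot be told apart.

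Hepatocytes secrete most proteins of the blood plasma, among them albumin, lipoproteins, clotting factors and protease inhibitors, and detoxify ammonia through the urea cycle. Transcription of these genes is known to depend on a set of liver transcription factors, HNF1, HNF4, C/EBP and FOXA, which act at short promoters and at distal enhancers. Hepatoma lines keep part of this programme and often express alpha-fetoprotein, the fetal counterpart of albumin.

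In each list, the share of these liver genes with a region at a gene end was below that of all genes. With 1 kb either side of a gene end, 3 of 36 liver genes (8.33%) had a region at 0.1 µM, against 19.5% of all genes. At 0.5 µM the number was 2 of 36 (5.56%), against 18.7%, and at 1 µM 4 of 36 (11.1%), against 23.0%. Only Apoa2 and C3 had a region at a gene end at every dose (5.56%, against 14.2% of all genes), and Cp and Rbp4 were the other members with such a region in any list. In the wider window, the gene with 10 kb either side, the members with a region were 8 of 36 (22.2%) at 0.1 µM, against 31.7% of all genes. They were 7 (19.4%) at 0.5 µM, against 30.2%, and 11 (30.6%) at 1 µM, against 36.8%. At every dose they were 7 (19.4%), against 23.4%. The remaining 25 members had no region in either window in any list.

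**Figure D1:**
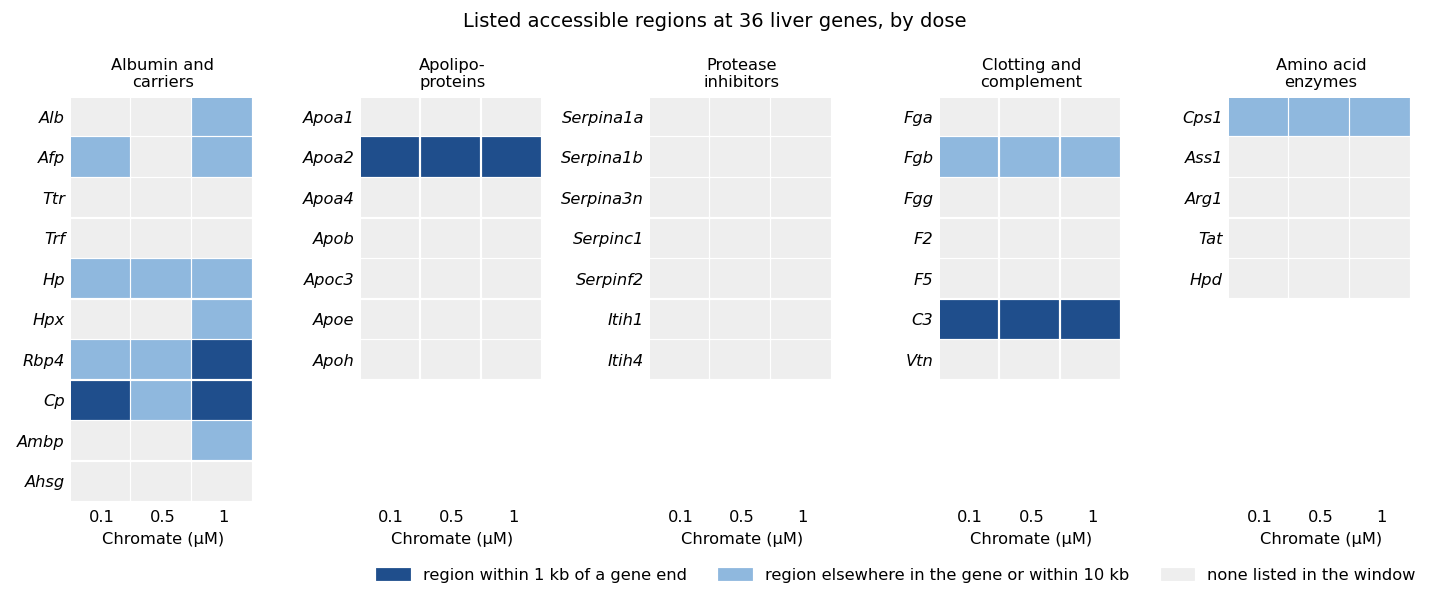
Each of the 36 liver genes (rows, by role) at each chromate dose in µM (columns), dark where a region was listed within 1 kb of a gene end, light blue where one lay elsewhere in the gene or within 10 kb, grey where none was listed. Apoa2 and C3 are dark at all 3 doses, and none of the 7 protease inhibitors has a region in either window.

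Per megabase of window, the regions around these genes were about as dense as around all genes at 0.1 and 1 µM. Windows were summed gene by gene, so sequence and regions shared by overlapping windows were counted for each gene. The members' windows summed to 1.38 Mb and held 12, 8 and 14 regions at 0.1, 0.5 and 1 µM. This is 8.69, 5.79 and 10.1 per Mb, against 8.56, 7.40 and 10.1 per Mb over the windows of all genes. No region was counted for more than 1 member. Chromosome 15, which holds no member, was set apart after seeing the data. The windows of all genes outside it held 8.08, 6.88 and 9.51 regions per Mb. Inside the gene itself a region was present in 5, 2 and 6 members (13.9%, 5.56% and 16.7%), against 24.6%, 22.5% and 28.3% of all genes. The members are shorter, with a median length of 10.6 kb against 17.3 kb, and the part of length in these shares was not tested. With 50 kb either side the members no longer lay below the other genes: 18, 19 and 21 of 36 had a region (58.3% at 1 µM), against 47.0%, 46.4% and 54.7% of all genes.

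**Figure D2:**
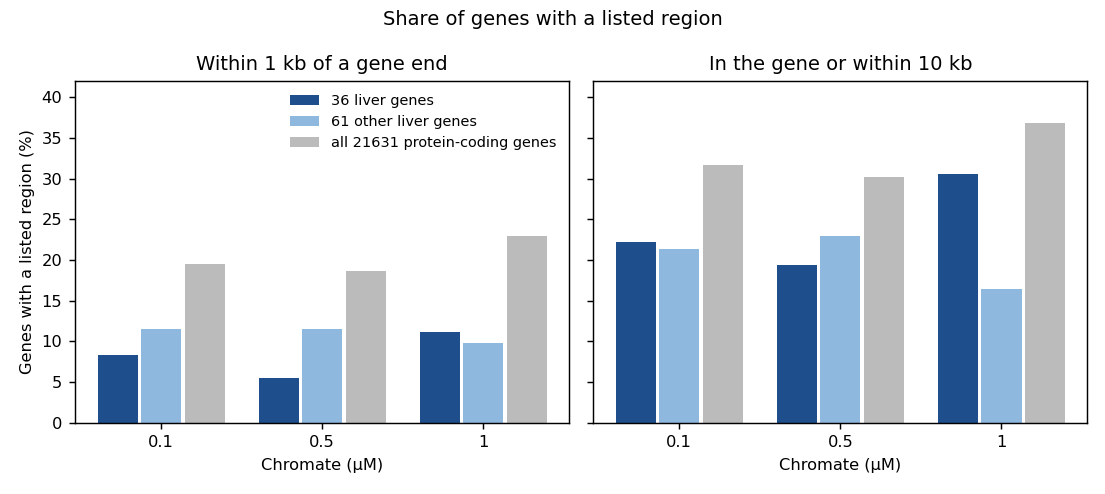
Share of genes with a listed region (percent, vertical axis) by chromate dose in µM, for the 36 liver genes, 61 other liver genes and all 21631 protein-coding genes, within 1 kb of a gene end (left) and in the gene or within 10 kb (right). The bars of the 36 genes are below those of all genes at each dose, for example 8.33% against 19.5% at gene ends at 0.1 µM.

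Among the carriers, Cp was the gene with most regions at 1 µM. It encodes ceruloplasmin, the copper-carrying ferroxidase of plasma. A region upstream of the gene was listed at each dose, at chr3:19953759-19954285 (0.1 µM, 527 bp), chr3:19953897-19954188 (0.5 µM, 292 bp) and chr3:19953863-19954301 (1 µM, 439 bp), about 3 kb before the first transcript start. Its score, a whole number whose scale the authors do not state, was 23, 33 and 38. Ranked within each list, where 100 is the highest score, this is percentile 80.1, 92.7 and 88.6. Scores are used here only for such ranks and are not read as differences between doses. The upstream region was thus among the higher-scoring ones of each list.

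A second Cp region lay at the transcript starts, at chr3:19957072-19957277 at 0.1 µM (206 bp, score 6) and chr3:19956879-19957282 at 1 µM (404 bp, score 19, percentile 67.1). The 0.5 µM list had none there. A further one inside the gene was listed at 1 µM only, at chr3:19960754-19961061 (308 bp, score 6, percentile 13.2). RefSeq gives Cp a pair of starts 195 bp apart. The region at 1 µM covered both, and that at 0.1 µM only the downstream one. The regions covered 206 bases of the 300-base promoter of the downstream start at 0.1 µM and 284 bases at 1 µM. The promoter is shown from 250 bases before to 50 after that start (RefSeq, GRCm38.p6, chr3:19956999-19957298, plus strand), since regions were listed over it. Capitals mark matches to the motifs spelled out further on: a CCAAT box, a C/EBP motif 70 bases before the start and a TATA box 27 bases before it.
Cp: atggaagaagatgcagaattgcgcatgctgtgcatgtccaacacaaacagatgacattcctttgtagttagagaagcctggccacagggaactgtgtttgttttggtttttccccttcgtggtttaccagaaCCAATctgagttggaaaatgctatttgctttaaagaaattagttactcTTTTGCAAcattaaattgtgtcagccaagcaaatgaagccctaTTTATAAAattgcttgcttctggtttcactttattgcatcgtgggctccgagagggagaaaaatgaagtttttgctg

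Rbp4, the plasma carrier of retinol, had a region at every dose in the 10 kb window, and one at its start at 1 µM only. The distal region was listed at chr19:38133983-38134279 (0.1 µM, 297 bp, score 18), chr19:38134076-38134370 (0.5 µM, 295 bp, score 14) and chr19:38134012-38134426 (1 µM, 415 bp, score 29), at percentile 72.3, 67.3 and 82.4. It lies 8.66 to 8.76 kb from Rbp4 and inside the neighbouring Pde6c, a cone phosphodiesterase gene. The region at the start, at chr19:38125158-38125373 (216 bp, score 9, percentile 31.6), covered 102 bases of the promoter of the upstream start and none of that of a downstream start 510 bp away, from which it was 96 bp apart. These promoters differ in composition. The upstream one has a CpG ratio (observed over expected) of 0.40, holds 40.7% G and C and no TATA or GC box, while the downstream one has a ratio of 1.0 with 72.0% G and C, a TATA box 28 bases before the start and a pair of GC boxes. In the upstream one, capitals mark a FOXA motif 241 bases and a CCAAT box 162 bases before the start, and in the downstream one also an AP-1 and a C/EBP motif. Both are shown (RefSeq, GRCm38.p6, minus strand, chr19:38125272-38125571 and chr19:38124762-38125061), because a region was listed over the upstream one and none over the downstream one.
Rbp4 upstream start: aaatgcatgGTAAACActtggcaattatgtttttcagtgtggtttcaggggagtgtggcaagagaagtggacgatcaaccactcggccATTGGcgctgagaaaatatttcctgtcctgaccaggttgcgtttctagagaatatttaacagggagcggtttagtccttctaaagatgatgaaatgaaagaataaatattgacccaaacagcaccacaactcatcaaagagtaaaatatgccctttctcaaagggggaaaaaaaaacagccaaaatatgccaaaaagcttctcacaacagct
Rbp4 downstream start: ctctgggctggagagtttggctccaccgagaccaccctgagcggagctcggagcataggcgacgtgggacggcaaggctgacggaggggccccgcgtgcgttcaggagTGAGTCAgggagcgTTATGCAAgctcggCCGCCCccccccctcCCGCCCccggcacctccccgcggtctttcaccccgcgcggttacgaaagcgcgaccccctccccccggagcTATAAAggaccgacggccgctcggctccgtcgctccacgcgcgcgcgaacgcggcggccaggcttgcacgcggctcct

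Alb and Afp, neighbours that together span 48.0 kb, had regions inside the genes and none at their ends. Alb encodes albumin, the most abundant plasma protein. Its region was listed at 1 µM only, at chr5:90467289-90467541 (253 bp, score 19, percentile 67.1), 6545 bp after the transcript start. For Afp, alpha-fetoprotein, a region 14.2 kb after the start was listed at 0.1 µM (chr5:90504806-90505035, 230 bp, score 10, percentile 44.8) and at 1 µM (chr5:90504758-90505058, 301 bp, score 21, percentile 72.6). At 0.5 µM the nearest region was 237 kb from Alb and 266 kb from Afp. The gene table gives no exons, so neither site could be placed in an exon or intron. The Alb promoter is shown as that of a liver gene with no region over it at any dose (RefSeq, GRCm38.p6, chr5:90460620-90460919, plus strand). Capitals mark an HNF4 motif 182 bases before the start, a C/EBP motif at 94 bases, CCAAT boxes at 56 and 15 bases and an HNF1 site at 32 bases.
Alb: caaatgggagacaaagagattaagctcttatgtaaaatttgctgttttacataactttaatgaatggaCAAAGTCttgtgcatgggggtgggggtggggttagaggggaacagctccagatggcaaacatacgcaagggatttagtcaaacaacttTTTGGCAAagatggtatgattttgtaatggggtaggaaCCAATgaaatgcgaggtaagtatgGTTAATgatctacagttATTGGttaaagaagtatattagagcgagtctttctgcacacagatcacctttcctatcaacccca

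Other carriers had regions that also lay at an end of a neighbouring gene. Hp encodes haptoglobin, which binds free haemoglobin. Its region, 9.05 to 9.23 kb away, was listed at chr8:109565676-109565900 (0.1 µM, 225 bp), chr8:109565629-109566018 (0.5 µM, 390 bp) and chr8:109565564-109566082 (1 µM, 519 bp), with scores of 8, 21 and 30 and percentiles of 30.7, 83.4 and 83.4. It overlaps Dhx38, a splicing helicase gene, and Txnl4b, a thioredoxin-like gene, and lies within 1 kb of an end, start or far end, of each. Hpx, the heme-binding hemopexin, had 1 region at 1 µM, 9.87 kb away at an end of Apbb1 (chr7:105581292-105581745, score 23). At 0.1 and 0.5 µM the nearest regions lay just outside the window, at 10.1 kb each. Ambp, the precursor of alpha-1-microglobulin and bikunin, had 1 region at 1 µM, 2.79 kb away at an end of the kinesin gene Kif12 (chr4:63156957-63157356, score 4, percentile 0.698). This was the lowest rank of any region at the members. Ttr, the thyroid hormone carrier transthyretin, the iron carrier Trf and Ahsg, fetuin-A, had none. Their nearest regions were at 54.1, 21 and 39.2 kb (Ttr), 136, 135 and 135 kb (Trf) and 452, 20.7 and 34.2 kb (Ahsg) in order of dose. In the carrier group as a whole, 4, 3 and 7 of 10 genes had a region in the wider window (40.0%, 30.0% and 70.0%). Of all genes, 31.7%, 30.2% and 36.8% had one, so the carriers were above them at 0.1 and 1 µM in this window. At gene ends the carriers were below at each dose, with 1, 0 and 2 of 10 against 19.5%, 18.7% and 23.0% of all genes. At 1 µM, Hp, Hpx and Ambp counted in the wider window only through regions at an end of a neighbouring gene. A group of 10 genes is too small for these counts to set it apart.

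Of the 7 apolipoprotein genes, only Apoa2 had a region in either window. In the wider window this is 14.3% at each dose, against 31.7%, 30.2% and 36.8% of all genes, in a small group. Apoa2 encodes apolipoprotein A-II of high-density lipoprotein. Its region was listed at chr1:171222379-171222884 (0.1 µM, 506 bp, score 22), chr1:171222397-171222910 (0.5 µM, 514 bp, score 24) and chr1:171222346-171222859 (1 µM, 514 bp, score 80), at percentile 78.4, 87.3 and 96.9 of the lists. The midpoint lay 1038 to 1089 bp after the upstream transcript start, and the region covered no base of either RefSeq promoter of the gene. It also overlaps an end of Tomm40l, a gene related to the mitochondrial import channel, so its assignment to Apoa2 is not unique. Apoa1, the main protein of high-density lipoprotein, and its neighbours Apoc3, an inhibitor of triglyceride clearance, and Apoa4 lie within 14.8 kb of each other. For Apoa1 the nearest region was 1360 kb away at 0.1 µM, 1930 kb at 0.5 µM and 108 kb at 1 µM. Apob, the scaffold of low-density lipoprotein, had its nearest region at 54.0, 54.0 and 53.9 kb. Those of Apoe, a ligand for lipoprotein uptake, were at 67.4, 48.3 and 48.3 kb. Apoh, a phospholipid-binding glycoprotein, had its nearest at 10.6, 29.8 and 10.6 kb, just beyond the window at 0.1 and 1 µM.

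**Figure D3:**
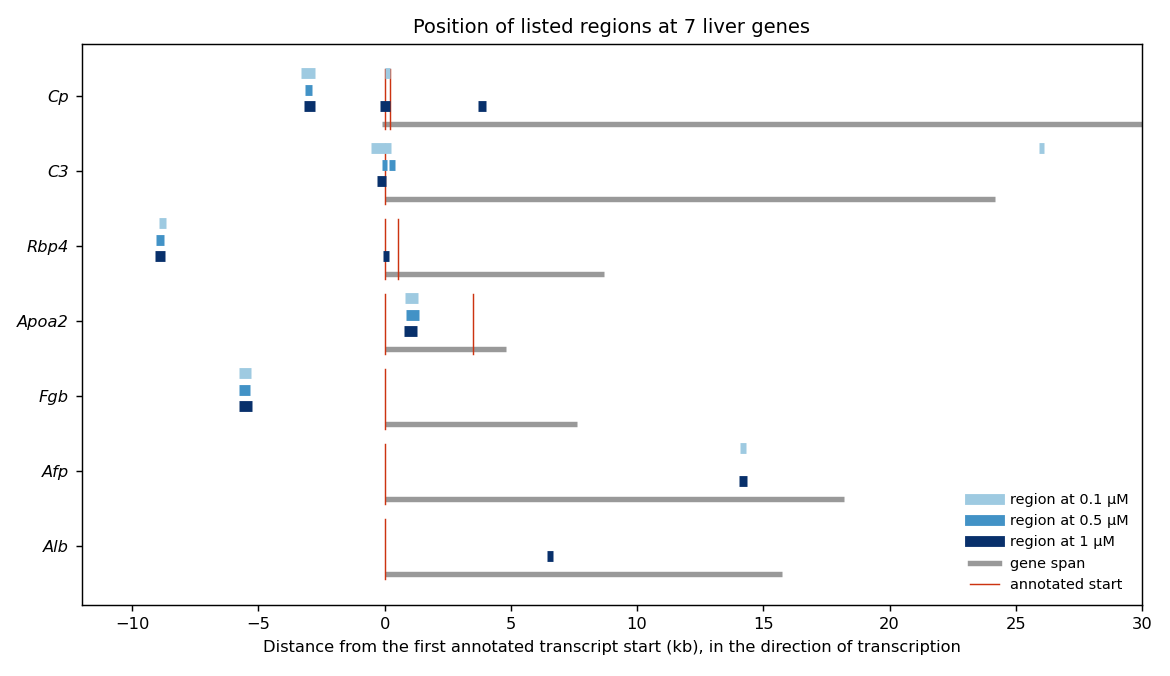
Position of the listed regions at 7 liver genes, as distance in kb from the first annotated transcript start (horizontal axis), with 1 line of bars for each dose, the gene span in grey and annotated starts in red (the Cp gene runs on beyond the right edge). Regions of Cp and Rbp4 upstream of the gene recur at all doses, about 3 kb and 8.8 kb before the start, and those of Alb and Afp lie inside the genes.

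None of the 7 protease inhibitor genes had a region in either window, against 31.7%, 30.2% and 36.8% of all genes in the wider one. A group of 7 genes is too small for this count to set it apart. The group holds Serpina1a and Serpina1b, which encode alpha-1-antitrypsins, Serpina3n, an acute-phase inhibitor, and the antithrombin gene Serpinc1. It also holds the antiplasmin gene Serpinf2 and Itih1 and Itih4, heavy chains of inter-alpha-trypsin inhibitors. The nearest regions lay 288, 427 and 288 kb from Serpina1a, 163, 302 and 163 kb from Serpina1b and 338 kb from Serpina3n at each dose. They lay 961, 493 and 961 kb from Itih1 and 918, 534 and 918 kb from Itih4. Serpinc1 (32.2, 32.4 and 32.1 kb) and Serpinf2 (23.5, 21.6 and 21.6 kb) had closer ones. The promoters of Serpina1a and Serpina1b are alike, with 206 of 295 bases the same (69.8%) once shifted by 5 bases. The Serpina1a promoter (RefSeq, GRCm38.p6, chr12:103863570-103863869, minus strand) is shown as a second liver promoter without a region. Capitals mark an AP-1 motif, a pair of CCAAT boxes and an HNF1 site before the start and a C/EBP motif 24 bases after it. The CCAAT box 25 bases before the start and the HNF1 site at 21 bases share a base.
Serpina1a: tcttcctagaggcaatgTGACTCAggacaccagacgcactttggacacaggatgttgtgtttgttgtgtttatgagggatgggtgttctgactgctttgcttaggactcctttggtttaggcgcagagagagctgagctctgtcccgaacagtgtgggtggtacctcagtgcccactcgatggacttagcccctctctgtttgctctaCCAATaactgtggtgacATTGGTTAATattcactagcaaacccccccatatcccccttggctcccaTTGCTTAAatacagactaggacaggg

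C3 was the only member with a region over a transcript start at every dose. It encodes complement component C3, the central protein of the complement cascade. At 0.1 µM a single region of 801 bp, chr17:57227880-57228680, covered the start (score 5, percentile 6.47). The 0.5 µM list had a pair of smaller regions, chr17:57227724-57227974 (251 bp, score 8) and chr17:57228036-57228234 (199 bp, score 6), and the 1 µM list one of 348 bp, chr17:57228079-57228426 (score 11, percentile 43.4). All of these ranked below the median score of their list. They covered 300, 148 and 300 bases of the promoter in order of dose. Another region beyond the far end of the gene was listed at 0.1 µM only (chr17:57202024-57202222, score 5). The promoter (RefSeq, GRCm38.p6, chr17:57228087-57228386, minus strand) is shown because it lay under regions of all 3 lists. Capitals mark a C/EBP motif 45 bases before the RefSeq start and a TATA box 14 bases after it.
C3: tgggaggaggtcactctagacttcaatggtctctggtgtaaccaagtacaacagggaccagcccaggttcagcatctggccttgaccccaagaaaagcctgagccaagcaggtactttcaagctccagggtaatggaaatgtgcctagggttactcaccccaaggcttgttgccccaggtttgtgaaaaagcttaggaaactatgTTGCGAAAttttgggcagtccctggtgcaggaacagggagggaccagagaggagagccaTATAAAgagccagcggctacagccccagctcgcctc

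The fibrinogen chain genes Fga, Fgb and Fgg lie within 42.1 kb. Fgb had a region 5.27 to 5.34 kb away at every dose, at chr3:83055157-83055637 (0.1 µM, score 50), chr3:83055202-83055637 (0.5 µM, score 15) and chr3:83055134-83055639 (1 µM, score 27), at percentile 94.7, 70.3 and 80.3. That region is at an end of Plrg1, a splicing factor gene next to the cluster, and it was also the nearest one to Fga (21.5, 21.6 and 21.5 kb) and Fgg (40.1 kb at each dose). F2, prothrombin, had its nearest region at 13.4, 85.5 and 13.6 kb, and F5, coagulation factor V, at 28.3 kb at each dose. For Vtn, the adhesion protein vitronectin, the distance was 33.9, 33.9 and 195 kb.

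Cps1 was the only enzyme gene with a region in the window. It encodes carbamoyl phosphate synthetase, the entry enzyme of the urea cycle. A region beyond one end of the gene was listed at each dose, at chr1:67113322-67113727 (0.1 µM, 406 bp, score 31), chr1:67113404-67113675 (0.5 µM, 272 bp, score 10) and chr1:67113347-67113769 (1 µM, 423 bp, score 22), at percentile 87.2, 49.3 and 74.1 and 8.66 to 8.75 kb from the gene. No end of another protein-coding gene lay within 1 kb of it. A pair of regions inside Cps1, at chr1:67217384-67217797 and chr1:67227057-67227258, were listed at 0.1 µM only (score 9 each). Ass1, argininosuccinate synthetase, had its nearest region at 517, 51.7 and 51.7 kb, and Arg1, arginase, at 1190, 45.2 and 886 kb. Tat, tyrosine aminotransferase (117, 218 and 117 kb), and Hpd, the next enzyme of tyrosine breakdown (114 kb at each dose), lay over 100 kb from any region.

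**Figure D4:**
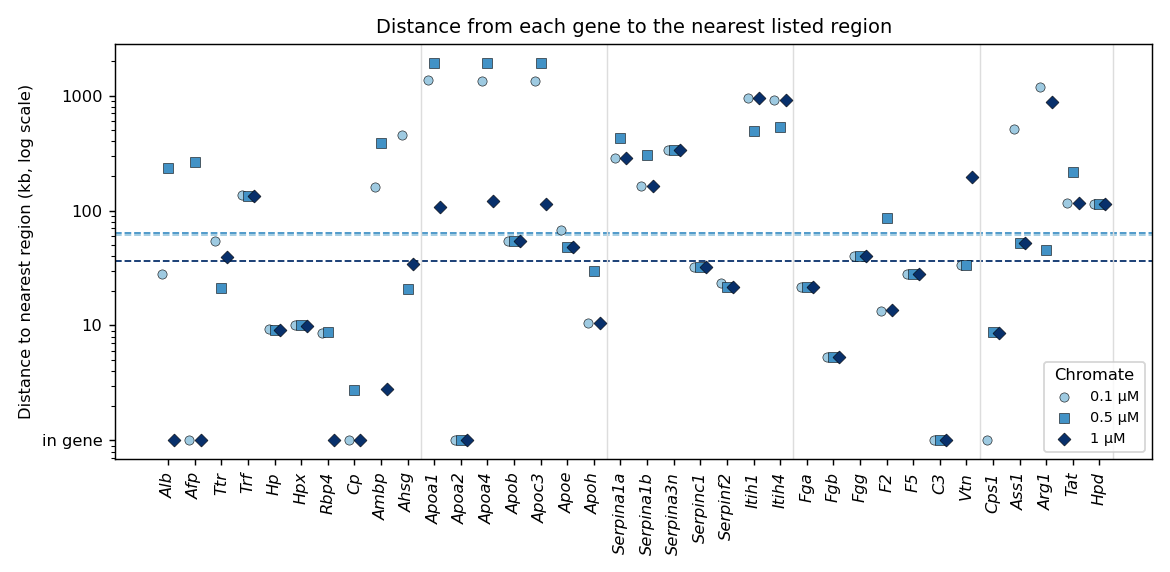
Distance in kb (log scale) from each of the 36 liver genes to the nearest listed region at each dose, with genes that hold a region placed at the bottom as in gene. Dashed lines give the median over all protein-coding genes at the dose of that colour, 61.9, 63.8 and 36.4 kb in order of dose.

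Over all members, the median distance from a gene to the nearest region was 47.0, 46.7 and 36.7 kb at 0.1, 0.5 and 1 µM, against 61.9, 63.8 and 36.4 kb over all genes. The lower quartile was larger for the members, at 10.5, 20.9 and 8.95 kb against 0.0385, 1.45 and 0.0 kb. The upper quartile was 300, 275 and 118 kb against 267, 268 and 170 kb. More than 50 kb separated 18, 17 and 15 members from any region of 36 (41.7% at 1 µM), against 53.0%, 53.6% and 45.3% of all genes. The distances of a single gene differed greatly between lists in some cases, as at Apoa1, Arg1, Ass1 and Ahsg.

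The regions in the members' windows formed 17 sites when overlapping ones of different lists were joined. Of these, 7 (41.2%) were listed at every dose, against 34.5% of 21051 joined regions in the genome. The 7 sites belong to Apoa2, C3, Cp, Cps1, Fgb, Hp and Rbp4. With 3 of them at an end of another gene, 4 were not shared in this way: the C3 start and the upstream or distal sites of Cp, Cps1 and Rbp4. At 1 dose alone were 8 of the 17 sites, against 9019 of the 21051 joined regions. Of these sites, 5 were listed at 1 µM only, 3 at 0.1 µM only and none at 0.5 µM only. This is also the order of the lengths of the lists, and the same split was not counted over all joined regions. The sites at 1 µM only were those of Alb, Ambp and Hpx, the start of Rbp4 and the inner site of Cp. Only regions inside the members' windows were joined into sites, a limit that the joined regions of the genome did not have. At Hpx the nearest regions of the 0.1 and 0.5 µM lists lay just outside the window, at 10.1 kb each. Whether they overlap the Hpx site was not tested, so its place among the sites at 1 µM only may rest on the window edge. When each list was limited to its 11130 highest scores, 7, 7 and 10 of 36 members had a region in the wider window, against 27%, 30.2% and 29.3% of all genes. The members' regions had a median percentile of 41.5 at 0.1 µM, 68.8 at 0.5 µM and 73.3 at 1 µM.

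Promoter sequences were found for 30 of the 36 members, with 35 starts in all. Those of Apoc3, Arg1, Cps1, Hp, Trf and Ttr were not among them. A region covered a promoter in 2, 1 and 3 of the 30 genes at 0.1, 0.5 and 1 µM (6.67%, 3.33% and 10%), against 18.9%, 17.8% and 22.3% of 17274 genes. C3 alone had one at every dose (3.33%, against 13.7%). The members' promoters are poor in CpG, with a median ratio of 0.25 against 0.57 over 21045 promoters, and 32 of 35 (91.4%) had a ratio under 0.6, against 51.9%. In all promoters, those with a ratio of 0.6 or more were under a region in 29.5%, 28.1% and 34.8% of cases, and those below it in 6.31%, 5.60% and 7.41%. Among the 32 CpG-poor promoters of the members the shares were 9.38%, 3.12% and 12.5%, or 3, 1 and 4 promoters. These belong to 2, 1 and 3 genes, since both overlapping promoters of Cp count at 0.1 and 1 µM. None of the 3 members' promoters with a ratio of 0.6 or more was under a region at any dose. The part of CpG content in the lower share of members was not tested. The split at 0.6 was added after the first results had been seen.

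**Figure D5:**
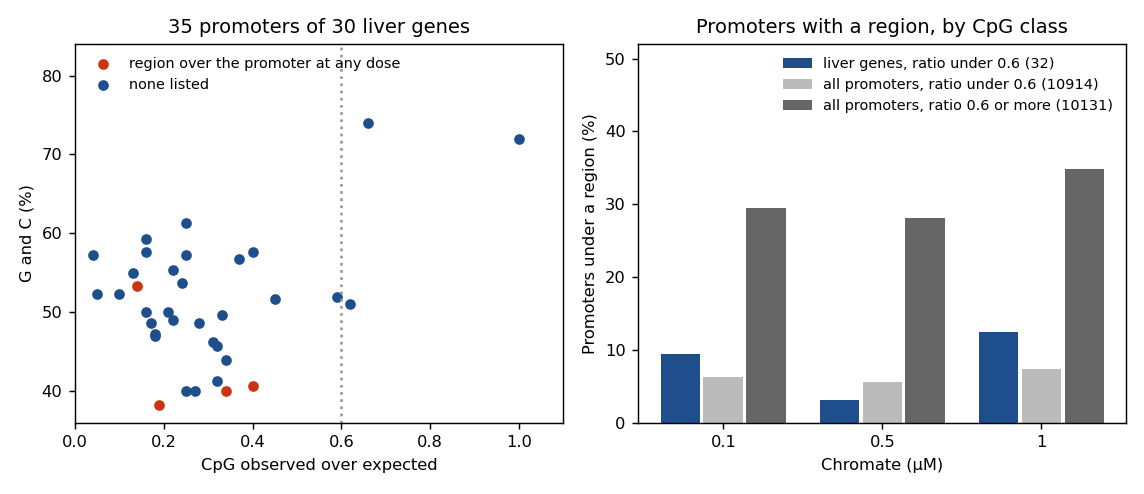
Left, CpG observed over expected (horizontal axis) and percent G and C (vertical axis) of the 35 member promoters, red where a region covered the promoter at any dose. Right, percent of promoters under a region by dose for CpG-poor promoters of the members and of all genes and for CpG-rich promoters of all genes, with values of 9.38%, 6.31% and 29.5% at 0.1 µM.

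Short motifs were searched on both strands of the 300-base promoters, and matches may overlap one another. The C/EBP motif TTGCNNAA was found in 14 of 35 member promoters (40.0%), against 10.3% of all promoters. The HNF1 site GTTAAT was found in 11 (31.4%), against 6.25%. The TATA box TATAAA was present in 9 (25.7%, against 12.7%), the AP-1 motif TGANTCA in 7 (against 7.04%), and both the HNF4 motif CAAAGTC (4.17% of all promoters) and the FOXA motif TGTTTAC (3.03%) in 4 (11.4%). The GC box GGGCGG was found in 4 (11.4%, against 46.7%) and the CCAAT box, CCAAT, in 12 (34.3%, against 38.5%). The members' promoters differ from all promoters in composition, with 91.4% against 51.9% under a CpG ratio of 0.6. Motif shares were not compared within that class, and the part of composition in them was not tested. Of the 4 promoters under a region, those of C3, of both Cp starts and of the upstream Rbp4 start, 2 held a C/EBP motif, 1 an HNF1 site and none an HNF4 motif. Of the 31 without a region, 12 held a C/EBP motif, 10 an HNF1 site and 4 an HNF4 motif. C/EBP and HNF1 motifs were thus present in the listed and the unlisted promoters alike, and a match shows letters in this window, not a bound site.

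Other genes of the liver secretory and amino acid programme were also below all genes in the share with a region. Of 61 such genes, 7, 7 and 6 had a region at a gene end (11.5%, 11.5% and 9.84%), against 19.5%, 18.7% and 23.0% of all genes. In the wider window 13, 14 and 10 had one (21.3%, 23.0% and 16.4%), against 31.7%, 30.2% and 36.8%. Per megabase their windows were not below: they held 10.7, 9.58 and 10.3 regions per Mb, against 8.56, 7.4 and 10.1 for all genes. Those with a region at an end at every dose were Asl, argininosuccinate lyase of the urea cycle (best scores of 19, 8 and 9), and Cfi, complement factor I (56, 15 and 51). Fah, the last enzyme of tyrosine breakdown (8, 21 and 9), Gls2, a glutaminase (6, 14 and 14), Got1, aspartate aminotransferase (16, 21 and 69), and Pros1, protein S (19, 11 and 36), completed them. Of 6 hepatocyte marker genes, all of them members, none had a region at a gene end, and Cps1 at each dose and Alb at 1 µM had one in the wider window. No gene end region was listed for 5 markers each of Kupffer cells, liver endothelium and stellate cells. Among 5 cholangiocyte markers Sox9 had one at every dose and Krt7 at 1 µM. In the wider window the stellate cell markers Col1a1 (every dose) and Rgs5 (0.5 and 1 µM) had a region. So did the Kupffer cell marker Cd68 and the endothelial marker Cdh5 at 1 µM, Sox9 at every dose and Krt7 at 0.5 and 1 µM. Of all genes, 19.5%, 18.7% and 23.0% had a region at a gene end and 31.7%, 30.2% and 36.8% in the wider window. Lists of 5 or 6 genes are too short for these counts to tell cell types apart.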

How the data were processed

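ATAC-seq regions were taken as deposited, as 1 list per treated dose with chromosome, start, end, name and a score. The deposited score is a whole number from 4 to 520 whose scale and making the authors do not state. Per the submitters' processing notes, the build was mm10 and the tools included Bowtie2, Picard and MACS2 (no version or role stated). The names of the deposited lists carry a tag that begins with q, perhaps a threshold on q values, and the words filtered, BL and unique, which no source used here explains. A Tn5 read shift, pooling of libraries and the use of the control are not stated in those sources. Regions were set against a RefSeq gene table and promoter sequences of GRCm38.p6, to which mm10 corresponds, with 1-based coordinates. Any base of a region inside a window counted. Scores were turned into percentile ranks within a list. The overlap functions were tested on simulated data. Python 3.11.15, pandas 2.3.3 and NumPy 2.4.6 were used. No test was made, since there is 1 list per dose. Members and lists were chosen with earlier results of these data known. The text describes each member with a region at a gene end, or in the wider window at every dose, and accounts for the others by name. Of 62 further liver genes listed, 61 were found in the gene table. Other windows, midpoints, stronger, wider or equally long lists, starts alone and a stricter overlap were tried as alternatives.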

Additional observations from a re-analysis of the deposited data

How the results depend on the processing

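Of 66 recomputed counts of members, 31 stayed within 1.5 times the reported value and 35 did not. The members' share was below that of all genes in 58 of 64 recomputed shares. The exceptions were the 4 shares with 50 kb either side (18, 19, 21 and 14 members at 0.1, 0.5, 1 µM and every dose, the last 38.9% against 37.2%) and, among the 7521, 5968 and 8040 regions at or above the median score of their list, 1 µM and every dose in the wider window (9 members of 36, against 23.5% of all genes, and 5, 13.9% against 13.4%).

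At gene ends, counts at 0.1, 0.5, 1 µM and every dose were 2, 1, 3 and 1 with 500 bp and also by the region's midpoint, 5, 3, 6 and 3 with 5 kb, 1, 1, 2 and 1 at or above the median score, 2, 1, 2 and 1 at or above the median width, and 1, 2, 4 and 1 in lists of equal length. With 2.5 kb they stayed at 3, 2, 4 and 2 (21.9%, 21.1%, 25.7% and 16.0%). Around transcript starts alone they were also 3, 2, 4 and 2, but of the 30 members with a start. Of all genes with a start, 20.5%, 19.6%, 24.1% and 15.1% had such a region. The share of all genes at gene ends moved with the setting too. It was 18.2%, 17.5%, 21.5% and 13.3% with 500 bp, and 24.4%, 23.5%, 28.7% and 17.7% with 5 kb. At or above the median score it was 11.9% at 0.5 µM and 7.43% at every dose. In the wider window the members' counts were 5, 2, 6 and 2 in the gene span alone. They were 5, 3, 7 and 3 with 5 kb and 5, 6, 9 and 5 at or above the median score. At or above the median width they were 5, 3, 8 and 2. Of all genes, 24.6%, 22.5%, 28.3% and 17.5% had a region in the gene span alone, and 28.8%, 27.2%, 33.4% and 21.1% with 5 kb. Leaving out regions at an end of another gene, an alternative chosen after seeing the data, gave 5, 4, 6 and 4 (of all genes, 24.7%, 22.6%, 28.4% and 17.6%). With a reciprocal overlap of 50%, 1 member in place of 2 had the same region at its end at every dose (Apoa2), and 5 in place of 7 in the wider window. Outside chromosome 15, which holds no member and was set apart after seeing the data, 19.1%, 18.3% and 22.6% of genes had a region at an end and 31.0%, 29.4% and 36.2% in the wider window. Such small counts move by large factors when 1 gene is gained or lost, and no library could be left out, since the lists hold no values per library.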
